A study of Mus musculus with 12 samples.

Results

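The dual-specificity MAP kinase phosphatases are the enzymes that switch mitogen-activated protein (MAP) kinases off, by removing phosphate from both the threonine and the tyrosine of the activation loop. Kinase cascades activate ERK, JNK and p38 in response to growth factors and stress, and each phosphatase has its own preferred kinase and place in the cell. *Dusp1*, *Dusp4* and *Dusp5* encode nuclear enzymes whose genes are switched on by many stimuli, *Dusp6*, *Dusp7* and *Dusp9* encode cytoplasmic enzymes that prefer ERK, *Dusp8*, *Dusp10* and *Dusp16* encode enzymes that prefer JNK and p38, and *Dusp3* encodes a small atypical member without the kinase-docking domain. These 10 genes were taken by symbol from the 55401 gene identifiers of whole-kidney RNA-Seq tables, and all 10 were abundant enough to be tested. In the kidneys of mice given SK-124, *Dusp1* mRNA was 4.52-fold higher than with vehicle and *Dusp9* mRNA was 5.57-fold lower, and *Dusp8* and *Dusp10* were also higher by more than 1 on the log2 scale.

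The mice were C57BL6 males aged 8 weeks, with no genetic change named in the labels, and received 1 intraperitoneal injection. The injection held SK-124 at 40 mg/kg, or for the vehicle group the carrier alone, 2-hydroxypropyl-beta-cyclodextrin at 15%. SK-124 is a small molecule that the study describes as an inhibitor of salt-inducible kinases (SIKs) with selectivity for SIK2 and SIK3, so every difference below is between an injected drug and its injected carrier. Each group held 6 mice with 1 library per mouse, and the time between injection and collection of these kidneys is not named in the paper's text. Phosphatase protein and MAP kinase phosphorylation were not analysed here.

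The 12 libraries had similar depth, from 19244227 to 19771802 estimated counts. Levels are given as TMM-normalized CPM (counts per library total, with edgeR's composition correction applied to that total). Differences were tested in edgeR (quasi-likelihood F test) over 14159 genes, and a gene was called where its Benjamini-Hochberg adjusted p (FDR) was under 0.05. Some libraries stood apart. The 10 genes with the most counts took 39.9% to 43.2% of a vehicle library, 44.4% to 46.8% in SK-124 mice 1 to 3 and 38.6% to 40.2% in SK-124 mice 4 to 6. Vehicle mouse 5 had by far the highest *Dusp1* of its group, together with the highest *Dusp6* and *Dusp8*. Where a phosphatase call depended on these libraries, the fit without them is given. For *Dusp1*, *Dusp6* and *Dusp8* the estimate without vehicle mouse 5 is also given. Markers of the kidney's own segments were present in every library. The 5 proximal tubule markers summed to between 6471 and 7325 CPM with vehicle and between 6039 and 7675 CPM with SK-124, and 0 of 5 were called.

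The 10 phosphatase genes were chosen with earlier results of these data known, so their counts are a description and no test of the family. Of these 10, 7 were called, beside 24.4% of all genes tested. There were 6 called higher with SK-124, where 10.8% of all genes were, and 1 called lower, where 13.5% of all genes were. Scaled by library totals instead, 4 were called higher (*Dusp5* and *Dusp7* lost their calls), and with limma on log2(TPM + 1) 3 (*Dusp16* also lost its call), with 1 lower in both. The SK-124 mice lay entirely above the vehicle mice for 4 members (6.32% of all genes) and entirely below them for 1 member (6.65% of all genes). The median log2 fold change was 0.40 over the members and -0.01 over all genes tested. Of the 10 other dual-specificity phosphatase genes tested, described below, 0 were higher and 4 lower. By class, 3 of the 3 JNK- and p38-directed members were higher. Of the 3 nuclear inducible members, 2 were higher. The 3 cytoplasmic ERK-directed members went in different directions, with 1 higher and 1 lower. In whole-kidney RNA, fewer cells of a type and less RNA per cell cannot be told apart.

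**Figure D1:**
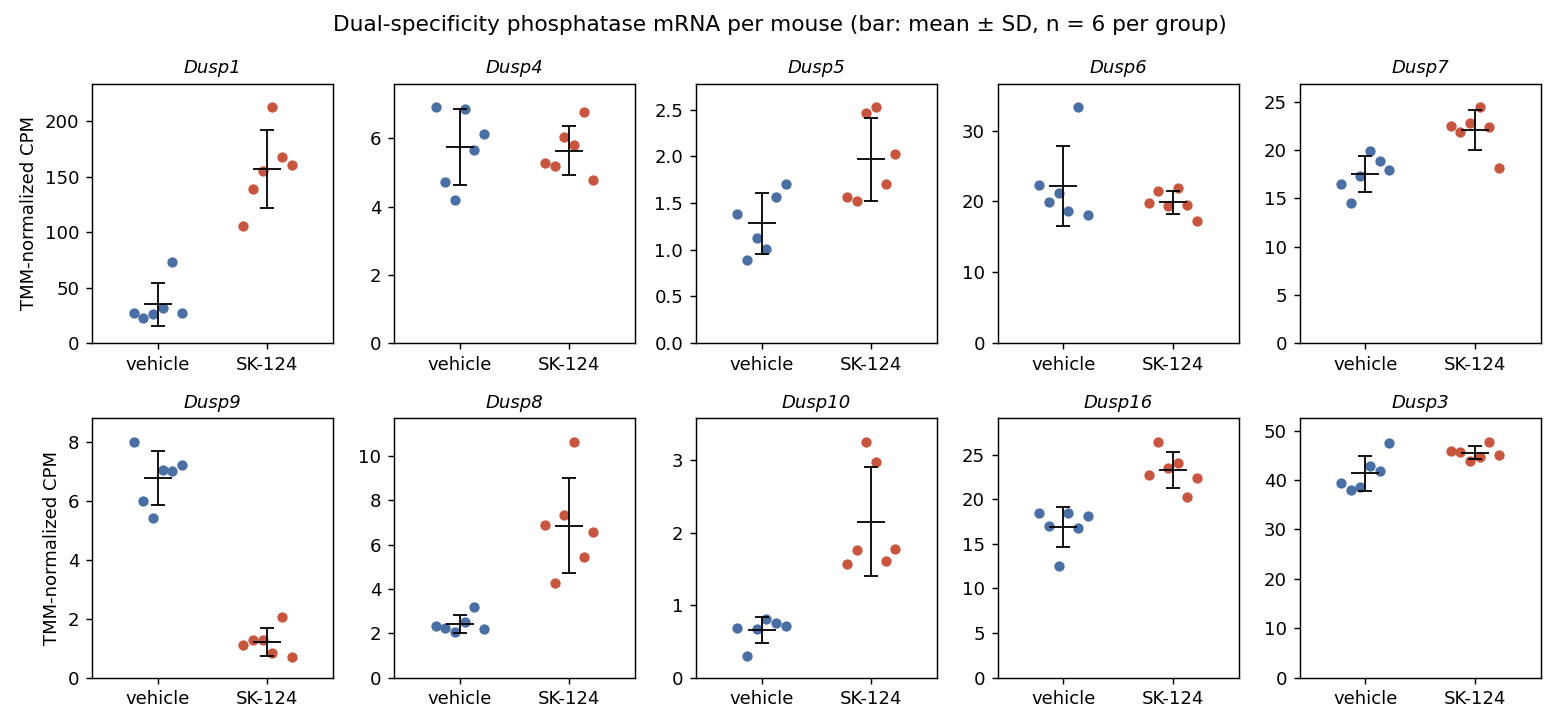
TMM-normalized CPM (vertical axis, starting at 0) of each phosphatase gene in the 6 vehicle mice (blue) and the 6 SK-124 mice (red), in mouse order from left to right, with the mean and SD as black bars. The groups do not overlap for *Dusp1*, *Dusp8*, *Dusp9*, *Dusp10* and *Dusp16*, and vehicle mouse 5 stands above its group for *Dusp1* and *Dusp6*.

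*Dusp1* (ENSMUSG00000024190.7, chromosome 17, 26505590 to 26562128, minus strand, GENCODE M21 on GRCm38) encodes the founding nuclear member, which acts on p38 and JNK as well as ERK. Its level ran from 22.7 CPM through a median of 27.3 to 73.2 CPM in vehicle mice, and from 106 through 158 to 213 CPM in SK-124 mice. The lowest SK-124 mouse was above the highest vehicle mouse. The group means were 34.7 ± 19.1 and 157 ± 35.3 CPM (SD over 6 mice each). The log2 fold change was 2.18 (SE 0.24, 95% interval 1.66 to 2.69, FDR = 4.09e-06). Without vehicle mouse 5, which had 73.2 CPM, the log2 fold change was 2.54. It was 1.94 (FDR = 0.000357) against SK-124 mice 1 to 3 alone and 2.38 (FDR = 5.31e-05) against SK-124 mice 4 to 6 alone. *Ergic1* on the opposite strand shares 11 of the 3311 exon bases of *Dusp1*, and whether strand was used in counting is not stated. *Ergic1* itself went from 70.5 to 80.1 CPM (log2 fold change 0.18, FDR = 0.00908). Genes on the opposite strand also share 604 exon bases with *Dusp3*, 547 with *Dusp5* and 66 with *Dusp8*, and these partners were at a mean of at most 0.0368 CPM in either group.

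*Dusp9* (ENSMUSG00000031383.8, chromosome X, 73639419 to 73643514, plus strand) encodes a cytoplasmic phosphatase that prefers ERK and is known from placenta, embryonic stem cells and the insulin-responsive tissues. It moved the other way. Vehicle mice had 5.41 to 7.998 CPM with a median of 7.04, and SK-124 mice had 0.709 to 2.05 CPM with a median of 1.19. The highest SK-124 value, in mouse 5, was well below the lowest vehicle value. These levels rested on 106 to 162 counts per vehicle mouse and 14 to 41 counts per SK-124 mouse. The group means were 6.78 ± 0.925 and 1.21 ± 0.474 CPM (SD over 6 mice each), and the log2 fold change was -2.48 (SE 0.18, 95% interval -2.87 to -2.09, FDR = 2.95e-08). Leaving out each mouse in turn gave -2.71 to -2.36, and SK-124 mice 1 to 3 alone gave -2.46 and mice 4 to 6 alone -2.48. No other annotated gene overlaps *Dusp9*. Ranked by p over all genes tested, *Dusp9* was number 91 and *Dusp1* number 291.

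The promoters of the members were searched, whether or not they rose, because SIKs restrain CRTC proteins, the coactivators of the transcription factor CREB, which binds the cAMP response element (CRE). RefSeq (GRCm38.p6) windows of 250 bases upstream of the annotated start were found for 8 of the 10 genes, not for *Dusp4* and *Dusp9*. There was 1 window per gene, and its start can differ from the GENCODE end of the gene. The windows of *Dusp1*, *Dusp3*, *Dusp8* and *Dusp10* lay inside the GENCODE span of the gene, and that of *Dusp5* reached into it. Other starts of these genes were not searched. The full palindromic CRE, TGACGTCA, was present in 2 of these 8 windows, those of *Dusp1* and *Dusp8*, beside 1.55% of 32851 windows genome-wide and 2.38% of 13645 windows of genes tested. The windows of both genes are shown because they hold the full element. Capitals mark TGACG, the CRE half-site, on either strand, so that a full element appears as 8 capitals.
Dusp1, chr17:26508473-26508722, minus strand: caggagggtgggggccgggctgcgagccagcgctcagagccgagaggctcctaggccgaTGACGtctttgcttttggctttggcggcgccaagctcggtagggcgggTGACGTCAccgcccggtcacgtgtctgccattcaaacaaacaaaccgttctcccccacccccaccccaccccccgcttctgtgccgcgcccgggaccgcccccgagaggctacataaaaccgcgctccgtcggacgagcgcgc
Dusp8, chr7:142095285-142095534, minus strand: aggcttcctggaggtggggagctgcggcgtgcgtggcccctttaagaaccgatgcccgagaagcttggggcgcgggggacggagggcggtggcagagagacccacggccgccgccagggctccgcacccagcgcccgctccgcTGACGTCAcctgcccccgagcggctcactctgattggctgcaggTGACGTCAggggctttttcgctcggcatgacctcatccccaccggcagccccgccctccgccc
In *Dusp1* the full element lay 143 to 136 bases upstream of the start, with a separate half-site 191 to 187 bases upstream. In *Dusp8* there were full elements at 107 to 100 and at 63 to 56 bases upstream. The half-site was present in 4 of 8 windows, those of *Dusp1*, *Dusp5*, *Dusp8* and *Dusp16*, beside 25.1% of the windows of genes tested and 17.8% of all windows. Half-sites include those inside full elements. The windows of *Dusp5* and *Dusp16* held single half-sites at 55 to 51 and at 70 to 66 bases upstream, and are shown for comparison with the full elements above.
Dusp5, chr19:53528895-53529144, plus strand: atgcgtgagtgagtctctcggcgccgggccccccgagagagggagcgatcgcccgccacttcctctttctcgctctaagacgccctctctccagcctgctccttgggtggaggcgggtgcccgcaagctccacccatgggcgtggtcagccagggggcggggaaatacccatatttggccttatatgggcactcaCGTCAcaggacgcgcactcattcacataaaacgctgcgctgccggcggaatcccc
Dusp16, chr6:134792629-134792878, minus strand: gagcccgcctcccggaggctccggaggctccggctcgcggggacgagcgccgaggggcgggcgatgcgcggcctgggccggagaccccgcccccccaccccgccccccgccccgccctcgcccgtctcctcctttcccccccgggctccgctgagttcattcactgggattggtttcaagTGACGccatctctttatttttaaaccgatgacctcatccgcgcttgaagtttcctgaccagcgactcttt
The window of *Dusp10*, which rose by more than 1 on the log2 scale, held neither form. Neither did that of *Dusp7*, also called higher, nor those of *Dusp3* and *Dusp6*, which were not called. The E-box CACGTG was present in 1 of 8 windows, that of *Dusp1*, 126 to 121 bases upstream, beside 8.05% of windows of genes tested and 6.02% of all windows. The TATA motif TATAAA was present in 0 of 8, beside 6.68% and 12.4%. All 4 motifs were searched on both strands, and a match of letters is not evidence of binding. A link between these motifs and the fold changes was not tested.

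Each of the JNK- and p38-directed members was called higher with SK-124. *Dusp8* (ENSMUSG00000037887.11, chromosome 7, 142079490 to 142095843, minus strand) was at 2.04 to 3.18 CPM with a median of 2.28 in vehicle mice and at 4.27 to 10.6 CPM with a median of 6.74 in SK-124 mice. The groups were apart, with SK-124 mouse 4 the highest and mouse 2 the lowest of the treated mice. The log2 fold change was 1.51 (SE 0.19, 95% interval 1.12 to 1.90, FDR = 1.18e-05), or 2.85-fold. Without vehicle mouse 5 the log2 fold change of *Dusp8* was 1.61 (FDR = 1.49e-05). *Dusp10* (ENSMUSG00000039384.8, chromosome 1, 184013302 to 184075636, plus strand), a regulator of JNK in immune cells and epithelia, was the least abundant member with vehicle. Its level was 0.297 to 0.807 CPM with a median of 0.701 in vehicle mice and 1.56 to 3.25 CPM with a median of 1.76 in SK-124 mice. SK-124 mice 3 and 4 were higher than the other 4, and no treated mouse reached down to the vehicle range. The log2 fold change was 1.71 (SE 0.25, 95% interval 1.18 to 2.23, FDR = 7.03e-05), on 6 to 16 counts per vehicle mouse and 27 to 60 per SK-124 mouse. *Dusp16* (ENSMUSG00000030203.17, chromosome 6, 134715468 to 134792625, minus strand), which prefers JNK, changed less. Vehicle mice ranged from 12.5 to 18.5 CPM with a median of 17.5, and SK-124 mice from 20.3 to 26.4 CPM with a median of 23.1. The groups were apart in CPM, by a small margin, and the log2 fold change was 0.46 (SE 0.09, 95% interval 0.27 to 0.65, FDR = 0.000850). On the authors' TPM scale the groups overlapped, and limma on log2(TPM + 1) did not call *Dusp16* (0.22, FDR = 0.164).

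The other nuclear members behaved differently from *Dusp1*. *Dusp5* (ENSMUSG00000034765.6, chromosome 19, 53529109 to 53542431, plus strand), a nuclear phosphatase specific for ERK, was at 0.892 to 1.71 CPM with a median of 1.25 in vehicle mice and at 1.52 to 2.52 CPM with a median of 1.87 in SK-124 mice. The ranges overlapped, and SK-124 mice 3 and 4 were the highest. The log2 fold change was 0.62 (SE 0.19, 95% interval 0.21 to 1.02, FDR = 0.0251), on 18 to 51 counts per mouse. This call was lost when vehicle mouse 2, vehicle mouse 4, SK-124 mouse 3 or SK-124 mouse 4 was left out (highest FDR 0.0639), and with SK-124 mice 1 to 3 alone (FDR = 0.177). *Dusp4* (ENSMUSG00000031530.6, chromosome 8, 34807297 to 34819894, plus strand), a close relative of *Dusp1*, had 4.19 to 6.91 CPM in vehicle mice and 4.76 to 6.76 CPM in SK-124 mice. Its groups overlapped almost fully, with a log2 fold change of -0.02 (95% interval -0.29 to 0.25, FDR = 0.918). The intervals of *Dusp1* and *Dusp4* do not overlap.

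Among the cytoplasmic members, *Dusp7* (ENSMUSG00000053716.9, chromosome 9, 106368632 to 106375724, plus strand) rose slightly as *Dusp9* fell. It had 14.5 to 19.9 CPM with a median of 17.6 in vehicle mice and 18.2 to 24.5 CPM with a median of 22.5 in SK-124 mice. SK-124 mouse 6 was within the vehicle range and the other 5 were above it. The log2 fold change was 0.33 (SE 0.08, 95% interval 0.16 to 0.50, FDR = 0.00543), and with SK-124 mice 4 to 6 alone the FDR was 0.0610. With library totals in place of TMM it was 0.22 (FDR = 0.0875), where the median of all genes was also shifted, to -0.12, and with limma on log2(TPM + 1) it was 0.05 (FDR = 0.812). *Dusp6* (ENSMUSG00000019960.8, chromosome 10, 99263231 to 99267489, plus strand), the feedback phosphatase of ERK, ranged from 18.1 to 33.3 CPM with a median of 20.5 in vehicle mice and from 17.2 to 21.8 CPM with a median of 19.6 in SK-124 mice. The groups overlapped, and the log2 fold change of -0.16 (95% interval -0.42 to 0.10, FDR = 0.374) was -0.01 without vehicle mouse 5, which held the 33.3 CPM. *Dusp3* (ENSMUSG00000003518.13, chromosome 11, 101971143 to 101987013, minus strand) had 37.9 to 47.5 CPM with vehicle and 43.9 to 47.7 CPM with SK-124. Its log2 fold change of 0.14 (95% interval 0.02 to 0.26) did not pass the adjusted threshold (FDR = 0.0974), and it was -0.03 with limma on log2(TPM + 1), where the median of all genes was shifted to -0.11. Without vehicle mouse 6, *Dusp3* was at 0.18 (FDR = 0.0219).

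**Figure D2:**
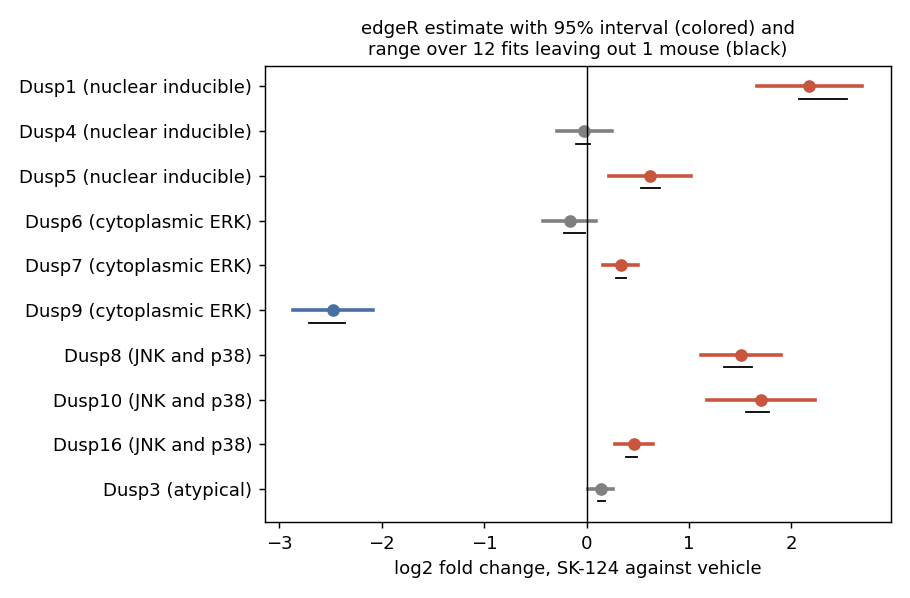
The log2 fold change of each phosphatase gene, SK-124 against vehicle, from edgeR (horizontal axis), with the 95% interval as a colored line (red higher, blue lower, grey not called) and the range over 12 fits that each left out 1 mouse as a thin black line below it. *Dusp1* at 2.18 and *Dusp9* at -2.48 lie at opposite ends, and of the leave-one-out ranges that of *Dusp4* crosses 0.

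Levels of different genes were compared per length, in the authors' TPM (transcript abundance scaled to length and to a fixed total). With vehicle the order by median TPM was *Dusp1* (16.9), *Dusp3* (11.005), *Dusp7* (7.505), *Dusp6* (7.10), *Dusp16* (3.58), *Dusp9* (2.59), *Dusp4* (2.27), *Dusp5* (0.49), *Dusp8* (0.48) and *Dusp10* (0.275). Some neighbours in this order could not be separated: *Dusp7* was above *Dusp6* in 3 of 6 vehicle mice, and *Dusp5* was above *Dusp8* in 3 of 6. *Dusp16* and *Dusp9*, and *Dusp9* and *Dusp4*, overlapped in range across mice, although in every vehicle mouse the first of each pair was higher. With SK-124, *Dusp1* stayed first, at 52.3 to 124 TPM with a median of 87.5. *Dusp9* went from rank 6 to rank 10, at 0.26 to 0.76 TPM with a median of 0.35, below *Dusp10* (0.605) in 5 of 6 mice. *Dusp8* rose to a median of 1.325 TPM and was above *Dusp5* (0.76) in 6 of 6 mice.

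The summed TPM of the 10 genes was 43.8 to 91.8 per vehicle mouse, with a median of 52.6, and 83.0 to 165 per SK-124 mouse, with a median of 121. The groups overlapped only through vehicle mouse 5. Without *Dusp1* the sum was 29.6 to 45.4 TPM (median 35.7) with vehicle and 30.5 to 40.3 TPM (median 33.2) with SK-124. The higher sum was thus carried by *Dusp1*, whose share of it went from 30.2% to 50.6% (median 31.7%) in vehicle mice to 63.1% to 75.5% (median 71.6%) in SK-124 mice. The share of *Dusp9* went from a median of 4.81% to 0.374%, without overlap. In TPM, *Dusp1* exceeded *Dusp9* by 5.59 to 17.0 times in vehicle mice and by 136 to 414 times in SK-124 mice. The 3 cytoplasmic ERK-directed genes together made up 28.5% to 36.4% of the sum with vehicle and 10.4% to 17.2% with SK-124. Shares of one sum move together, so the rise of *Dusp1* alone lowers every other share.

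**Figure D3:**
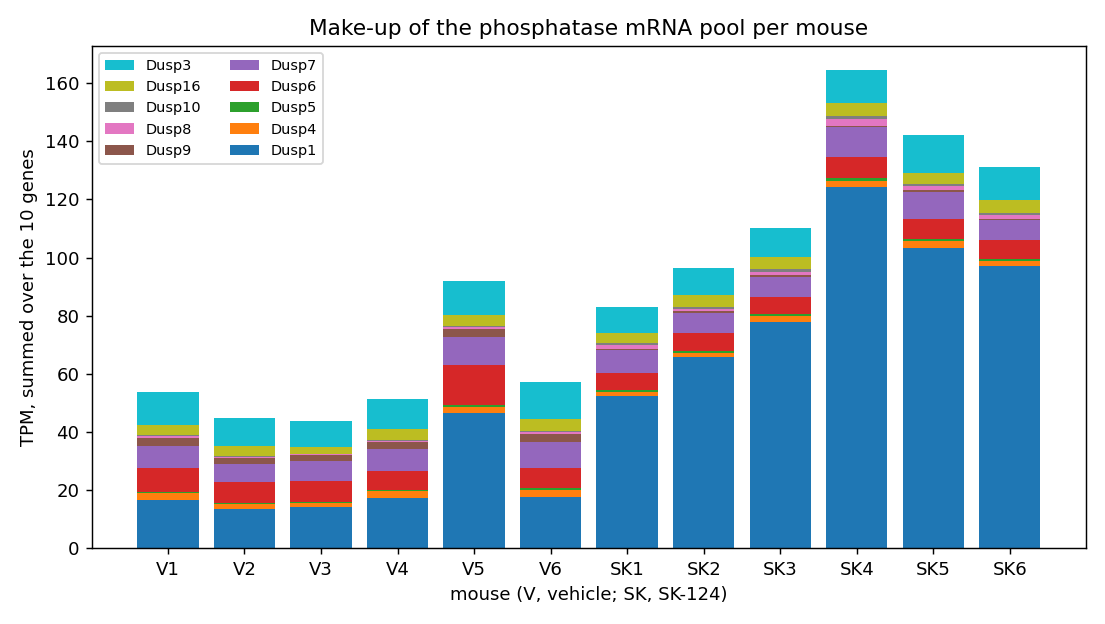
TPM of the 10 phosphatase genes stacked for each mouse (vertical axis, starting at 0; V, vehicle; SK, SK-124), colored by gene. *Dusp1*, the lowest segment, makes up 63.1% to 75.5% of the bar in SK-124 mice and 30.2% to 50.6% in vehicle mice, while the rest of the bar sums to 30.5 to 40.3 TPM and 29.6 to 45.4 TPM.

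The members did not rank the treated mice alike. SK-124 mouse 4 had the highest CPM of its group for *Dusp1*, *Dusp5*, *Dusp6*, *Dusp7* and *Dusp8*, mouse 3 for *Dusp10*, mouse 2 for *Dusp16*, and mouse 5 for *Dusp3*, *Dusp4* and *Dusp9*. Of 12998 genes compared, those whose log2 level followed *Dusp1* most closely within the groups were *Pfkl* (mean Pearson r 0.961), *Fos* (0.935) and *Zfp36* (0.925), over 6 vehicle and 6 SK-124 mice. *Pfkl* encodes a glycolytic enzyme, *Fos* an immediate-early transcription factor and *Zfp36* an mRNA-destabilizing protein. Over the vehicle group these correlations rested partly on mouse 5, without which they were 0.754, 0.826 and 0.876. That mouse had 27.1 CPM of *Fos*, where the other 5 vehicle mice had 0.496 to 2.12 CPM. *Zfp36* was also called higher with SK-124 (log2 fold change 1.71, FDR = 4.91e-05), with a log2 fold change of 2.08 (FDR = 1.08e-08) when vehicle mouse 5 was left out. *Fos* was at 2.43 to 12.1 CPM in SK-124 mice, above those other 5 vehicle mice. Its log2 fold change was 0.13 (FDR = 0.925) with all mice and 2.67 (FDR = 0.000362) without vehicle mouse 5. For *Dusp9* the closest genes were *Gorasp2* (0.930), *Zc3hc1* (0.863) and *Adam22* (0.855), and their own log2 fold changes were 0.04, -0.02 and -0.15 (FDR = 0.614, 0.912 and 0.471). The likenesses were picked as the highest of many genes in few mice and are a description.

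Of 16 further dual-specificity phosphatase genes 10 were tested, of which 0 were higher and 4 lower, with a median log2 fold change of -0.15. Over all genes tested 10.8% were higher and 13.5% lower. *Dusp15* fell by 0.72 (FDR = 0.000175), *Dusp14* by 0.65 (FDR = 0.000942), *Dusp19* by 0.39 (FDR = 0.0168) and *Dusp22*, a phosphatase of the JNK pathway, by 0.20 (FDR = 0.0256), all on the log2 scale. The call of *Dusp22* was lost without vehicle mouse 2, vehicle mouse 4 or SK-124 mouse 6 (highest FDR 0.0659). *Dusp2*, a nuclear inducible enzyme of lymphocytes, had at most 7 counts in any mouse and was not tested. Of 8 tyrosine and serine/threonine phosphatases that act on MAP kinases 6 were tested and 1 was called, *Ppp2cb*, a catalytic subunit of PP2A (0.19, FDR = 0.0210), which was not called without SK-124 mouse 3 (FDR = 0.0521).

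Over all lists of MAP kinase pathway genes other than the 10 members, which hold these phosphatases, receptors, kinases and target genes, 97 of 106 were tested. Of these 17 were higher, 20 lower and 60 not called, beside 10.8% higher and 13.5% lower over all genes tested, with a median log2 fold change of 0.02. With library totals in place of TMM the counts were 9 higher and 29 lower. In the ERK cascade 4 of 25 were higher and 4 lower, and all of the extremes were receptors: *Fgfr2* (0.58) and *Erbb3* (0.52) were higher, *Fgfr3* (-0.93) and *Erbb2* (-0.43) lower. *Mapk3*, which encodes ERK1, was not called (-0.11, FDR = 0.209). In the JNK cascade 2 of 13 were higher, *Mapk10* (0.75), which encodes JNK3, and *Map3k13* (0.36), and 2 were lower, *Map3k4* (-0.30) and *Mapk9* (-0.18), which encodes JNK2 and kept its call in 2 of the 12 fits that left out 1 mouse.

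In the p38 cascade 4 of 8 genes were higher and 1 lower, beside 10.8% and 13.5% of all genes tested. *Map3k6*, an upstream kinase of the ASK family, had the highest fold change of the tested genes in these lists. Its mean was 2.28 ± 0.422 CPM with vehicle and 18.5 ± 3.27 CPM with SK-124 (SD over 6 mice each), and the log2 fold change was 3.02 (SE 0.14, FDR = 1.06e-10), and its groups did not overlap. Its relative *Map3k5* rose by 0.68 (FDR = 5.30e-06), while *Mapk14*, which encodes the main p38 kinase, fell by 0.25 (FDR = 0.00368), both on the log2 scale. Among ERK5 and the atypical MAP kinases 3 of 8 were higher and 2 lower, with *Map3k3* (0.53) and *Mapk4* (0.33) at the upper end and *Mapk15* (-0.42) and *Mapk7* (-0.34), which encodes ERK5, at the lower end. The call of *Mapk4* was lost without vehicle mouse 1, vehicle mouse 2, SK-124 mouse 5 or SK-124 mouse 6 (highest FDR 0.0620).

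Downstream, 2 of 11 kinases that MAP kinases activate were higher, *Mknk2* (0.36) and *Mapkapk5* (0.16), and 2 were lower, *Rps6ka1* (-0.53) and *Rps6ka4* (-0.27). *Mapkapk5* kept its call in 3 of the 12 fits that left out 1 mouse. Of the genes known as transcriptional output of ERK, 16 of 17 were tested, with 1 higher, 5 lower and a median log2 fold change of -0.10. The shares over all genes tested were 10.8% higher and 13.5% lower. *Ccnd1*, which encodes cyclin D1, was at 107 ± 12.8 CPM with vehicle and 55.7 ± 6.14 CPM with SK-124 (SD over 6 mice each; log2 fold change -0.94, FDR = 3.28e-07). *Spry1*, a feedback inhibitor of receptor tyrosine kinase signaling, was lower (-0.51, FDR = 0.00890), and *Ier3*, an immediate-early gene, was higher (1.03, FDR = 7.85e-05). Without vehicle mouse 5, which had 26.5 CPM of *Spry1*, the log2 fold change of *Spry1* was -0.37 (FDR = 0.0120). *Phlda1*, among the 5 lower, was not called without that mouse (FDR = 0.0843). The immediate-early gene *Egr1* had 215 CPM in vehicle mouse 5, 5.80 to 18.8 CPM in the other 5 vehicle mice and 9.61 to 74.6 CPM in SK-124 mice. It was not called with all mice (-0.65, FDR = 0.610), and without vehicle mouse 5 its direction turned and it was called higher (1.504, FDR = 0.0314), as *Fos* was.

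**Figure D4:**
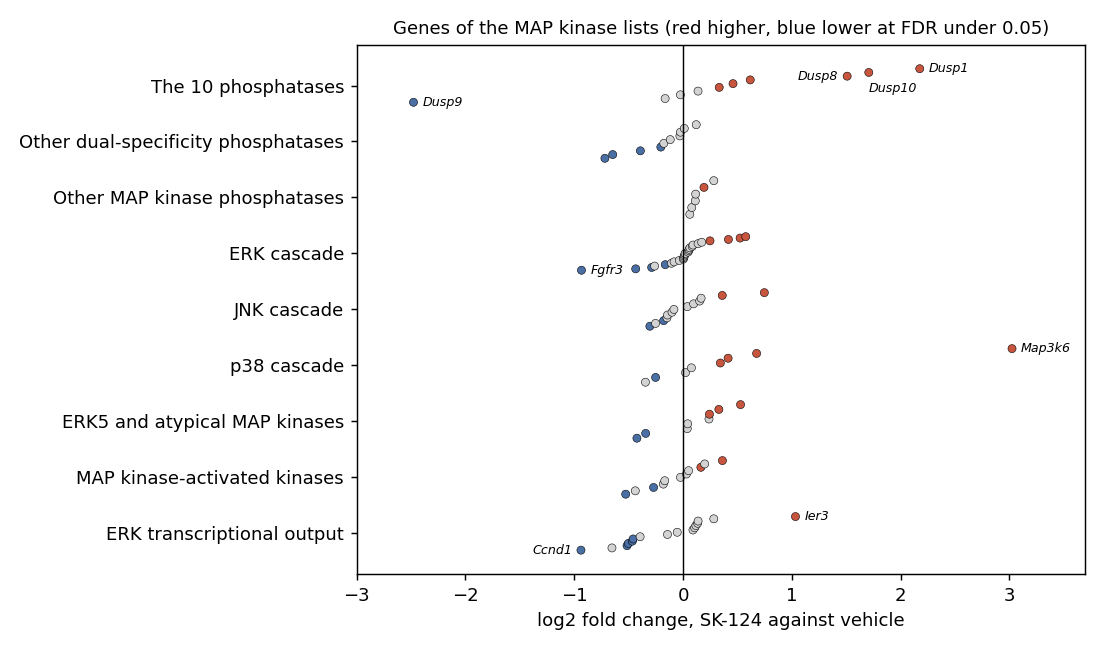
Each point is a tested gene of a MAP kinase pathway list, placed by its log2 fold change, SK-124 against vehicle (horizontal axis; within a list, points are spread vertically by rank only), and colored by call. *Dusp1*, *Dusp8* and *Dusp10* lie above 1 and *Dusp9* below -2, while most other genes of the lists lie within 1 of zero, with *Map3k6* at 3.02 as the exception farthest out.

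Markers of other cell types were examined beside these results. For 13 of 14 marker lists the summed level overlapped between the groups. The exception was the list of 4 B and plasma cell genes, at 1.83 to 2.50 CPM with vehicle and 0.451 to 1.04 CPM with SK-124. All treated mice lay below all vehicle mice, as they did for 6.65% of all genes tested. No gene of this list had more than 33 counts in any mouse. Of its genes 1 was tested, *Cd79a* (-1.75, FDR = 0.000627), and *Cd79b* and *Ms4a1* were at 0 in at least 1 SK-124 mouse. Single markers of other lists were also called, among them *Aqp2* of principal cells (0.75), *Slc4a1* of intercalated cells (-0.59), *Kdr* of endothelium (-0.85) and *Pdgfrb* of mural cells (-0.93). In the same lists, *Slc26a4* of intercalated cells (0.27) and *Acta2* of mural cells (0.41) were called higher. The other 4 endothelial markers and the other 2 principal cell markers were not called. The part of cell composition in the changes of the phosphatase genes was not tested. Adrenal cortex markers summed to at most 0.495 CPM, with *Cyp11b2* and *Cyp21a1* at 0 in all mice. The 4 adipocyte markers summed to 0.0511 to 13.0 CPM with vehicle and to 0.150 to 8.63 CPM with SK-124.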

How the data were processed

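Whole-kidney RNA of 12 mice was sequenced as 1 library each on a BGISEQ500 instrument. For each mouse the authors deposited RSEM's output by gene. It holds expected counts, estimated by RSEM and not normalized as deposited by the authors, and the authors' TPM and FPKM, which are scaled to gene length and library total. The submitters' processing notes name STAR 2.7.2b, RSEM 1.3.0, FastQC, DESeq2 and mm10. The annotation release and the use of strand are not given in the sources used here. The expected counts of the 10 genes were whole numbers in all 12 mice, with an estimated count error of 0, so no reads were split with paralogs.

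Expected counts were rounded, filtered (filterByExpr) and scaled with TMM. The test was edgeR's quasi-likelihood F test with treatment as the only term, adjusted by Benjamini-Hochberg over the 14159 genes that passed the filter. The biological coefficient of variation was 0.101. SEs are the log2 fold change over the square root of F, and intervals are 95%. The members and gene lists were chosen with earlier results of these data known, so FDRs are given over all genes only. Of 55401 identifiers, 54349 matched GENCODE M21 in full and 55141 when the version was ignored. Named pathway genes are the 2 highest and 2 lowest log2 fold changes among called genes of a list, and a few others (*Mapk3*, *Egr1*, *Fos*, *Phlda1*, *Dusp2*, *Dusp19*, *Dusp22*) and single cell type markers were named after their values were seen. Likeness was the mean of the within-group Pearson r of log2(CPM + 0.5), among tested genes whose mean reached 1 CPM.

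No pair of mice of one group was a duplicate (smallest chi-square per degree of freedom 4.72 over 30 pairs). Alternatives were DESeq2, RLE size factors, library totals, no filter, at least 10 counts in every mouse, robust dispersion, the replicate block, limma on log2(TPM + 1) and log2(TPM + 0.1), SK-124 mice 1 to 3 or 4 to 6 only, each mouse left out, and FPKM in place of TPM for levels. The procedure was tested on simulated data. Tests ran in edgeR 4.0.16, DESeq2 1.42.0 and limma 3.58.1 under R 4.3.3. Summaries and plots were made with pandas 2.3.3, numpy 2.4.6 and matplotlib 3.10.9 in Python 3.11.15.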

Additional observations from a re-analysis of the deposited data

Results flagged for a closer look

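Of 20 groups of 6 values (10 genes in 2 treatments), 4 held a value far from the other 5, where chance flags about 1 in 20. Vehicle mouse 5 had 73.2 CPM of *Dusp1* and 33.3 CPM of *Dusp6*, the highest of its group for both. Vehicle mouse 2 had 0.297 CPM of *Dusp10*, the lowest of its group, on 6 counts. Vehicle mouse 3 had 12.5 CPM of *Dusp16*, also the lowest of its group. The 2 values of vehicle mouse 5 are not independent, since they come from 1 library. None of the 10 SK-124 groups held such a value. Without vehicle mouse 5, *Dusp1* kept its call, at a log2 fold change of 2.54. *Dusp10* and *Dusp16* also kept their calls without their flagged mice, at smaller log2 fold changes. *Dusp10* went from 1.71 to 1.56 without vehicle mouse 2, and *Dusp16* from 0.46 to 0.39 without vehicle mouse 3.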

How the results depend on the processing

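The calls of *Dusp1*, *Dusp8* and *Dusp9* held in 23 of 23 alternatives and that of *Dusp10* in 22 of 22, since *Dusp10* was not testable with at least 10 counts in every mouse. *Dusp16* lost its call in 2 alternatives, *Dusp7* in 4 and *Dusp5* in 8. With limma on log2(TPM + 0.1) and log2(TPM + 1), 3 members were higher under each (*Dusp1*, *Dusp8* and *Dusp10*), 6 pathway genes were higher under each, and *Dusp3* was at -0.0286 and -0.0263, while the median over all genes was -0.14 and -0.11. With library totals 9 pathway genes were higher and 29 lower, 4 members were higher, and 20.3% of all calls were higher in place of 44.5%. With SK-124 mice 4 to 6 only, 11 pathway genes were lower and *Dusp4* was at 0.0147. The cause was not tested. With 1 mouse left out, 5 to 7 members were higher and 1 lower, 14 to 19 pathway genes were higher and 16 to 22 lower, and *Dusp4* ranged from -0.0985 to 0.0358. The number of members lower with SK-124 was 1 in every alternative. FPKM in place of TPM left the rank of all 10 members unchanged. This was nearly fixed in advance, since both units keep the same order of genes within a mouse. With the replicate block 6 members were higher and 1 lower, 17 pathway genes higher and 18 lower, and *Dusp1* was at 2.27 and *Dusp9* at -2.49. The numbers belong to different mice, and same-numbered mice correlated between -0.11 and 0.17, with 2 of 6 vehicle mice matching their own number best. Depth limits mainly *Dusp10*, *Dusp5* and *Dusp9* in SK-124 mice, with counts of 6 to 60, 18 to 51 and 14 to 41.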
